A study of Homo sapiens with 18 samples.

Results

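The spliceosomal U RNAs are short nuclear RNAs that, packed with proteins into small nuclear ribonucleoproteins (snRNPs), recognise introns and assemble the machinery that removes them. U1 pairs with the 5′ end of an intron. U4 arrives paired with U6 and together with U5, and U5 holds the exon ends that are to be joined. 7SK is a nuclear RNA that, with the proteins LARP7, MEPCE and HEXIM1 or HEXIM2, keeps the elongation kinase P-TEFb inactive and so restrains RNA polymerase II. U1, U4 and U5 are transcribed by RNA polymerase II, and 7SK by RNA polymerase III. U1 is encoded by a family of near-identical gene copies and by variant genes whose symbols start with RNVU1, and 1 array probe may read several copies.

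The probes described are all those of 7 genes chosen by symbol. They are the U1 genes RNU1-1 and RNU1-3, the U1 variant genes RNVU1-7 and RNVU1-18, the U4 gene RNU4-2, the U5 gene RNU5A-1 and the 7SK gene RN7SK. They had 8 probes among 43961 on the array, which named 19782 genes in all; RN7SK had 2 probes and the other genes 1 each. The genes were picked because several stood more than 10-fold higher in the arrays labelled si-hnRNP K than in the scramble arrays, so for these genes differences of those arrays from scramble or from the arrays labelled si-PSTAR are given below as descriptions, with no test. Genes outside the 7 were also tested between si-hnRNP K and scramble arrays. The tests of the 7 are those of comparisons that the choice did not use, namely doxorubicin against no drug within each siRNA, and the arrays labelled si-PSTAR against scramble. Apart from DOX in si-PSTAR arrays, each of these still shares its scramble or si-hnRNP K arrays with the contrast that chose the genes, so their tests are not fully independent of the choice. The values are probe intensities on a log2 scale, and a difference of 1 is a 2-fold change.

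Cells labelled HepG2, a human liver carcinoma line, received 1 of 3 transfections: si-hnRNP K, aimed at the RNA-binding protein made from HNRNPK; si-PSTAR, aimed at the long noncoding RNA PSTAR; or a scramble control. Each transfection was measured with doxorubicin (DOX, a DNA-damaging drug, 400 nM; 16 hours in the design text, 8 or 16 hours in the treatment protocol) and without it, with 3 Illumina bead arrays in each of the 6 groups and 18 in all. No label says that the 3 arrays of a group are separate cultures, so the error given is the spread between arrays and may be technical. Per the labels, total RNA was amplified with the TotalPrep kit, which as background primes from oligo(dT), while mature U RNAs and 7SK carry no poly(A) tail; which forms of these RNAs the probes read was not tested. In bulk RNA, fewer cells of a kind and less RNA per cell cannot be told apart.

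HNRNPK ran against the labels. Its brightest probe stood at 11.36 ± 0.22 with DOX and 11.55 ± 0.12 without in the arrays labelled si-hnRNP K (SD, n = 3 each), at 8.32 ± 0.14 and 8.44 ± 0.02 in those labelled si-PSTAR, and at 11.95 ± 0.07 and 11.72 ± 0.09 in scramble arrays. With DOX this probe was also lower in si-hnRNP K than in scramble arrays, by 0.59 (limma adjusted p = 5.13e-05). The next brightest probes averaged 8.16 and 6.25 with DOX in si-PSTAR arrays, 10.79 and 8.47 in si-hnRNP K arrays and 10.77 and 8.67 in scramble arrays. The dimmest probe showed no such loss with DOX, at 6.53 in si-PSTAR against 6.43 in scramble arrays. Directions below therefore belong to arrays "labelled" si-hnRNP K or si-PSTAR. Of 9 hepatocyte markers on the array, 3 had a mean at or above the median of all probes, 5.72, namely ALB at 7.41, SERPINA1 at 5.81 and TTR at 5.74. AFP, APOA1 and APOB lay below it, at 5.56, 5.49 and 5.51. Among 4 fibroblast markers DCN stood at 8.47, COL3A1 at 7.94 and COL1A1 at 7.70, and COL1A2 lay below the median at 5.67. Among 3 leukocyte markers CD68 stood at 7.75, with PTPRC and CD3E below the median at 5.56 and 5.52. Among 3 endothelial markers CDH5 stood at 6.56 and PECAM1 at 5.75, with VWF below the median at 5.32. The arrays were clustered by their correlation over 12483 genes, each at its brightest probe and with a mean at or above that median. Cut at 2 clusters, they formed a cluster of 6, which held the si-hnRNP K and scramble arrays that got no DOX, and a cluster of 12 with all others. DOX against no drug in the scramble and in the si-hnRNP K arrays, and untreated si-PSTAR against untreated scramble or untreated si-hnRNP K, set the clusters against each other, so cluster and condition cannot be told apart there. For 1169 genes the 2 brightest probes both had a mean of at least 7.5 over all arrays. The differences of these 2 probes correlated across genes at r = 0.229, 0.230, 0.295 and 0.341 in those comparisons. In comparisons inside a cluster r was 0.558 for DOX in the si-PSTAR arrays, 0.776 for si-PSTAR against scramble with DOX, and 0.760 and 0.862 for si-hnRNP K against scramble with and without DOX. Genes are not independent replicates, and these r values are descriptions.

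**Figure D1:**
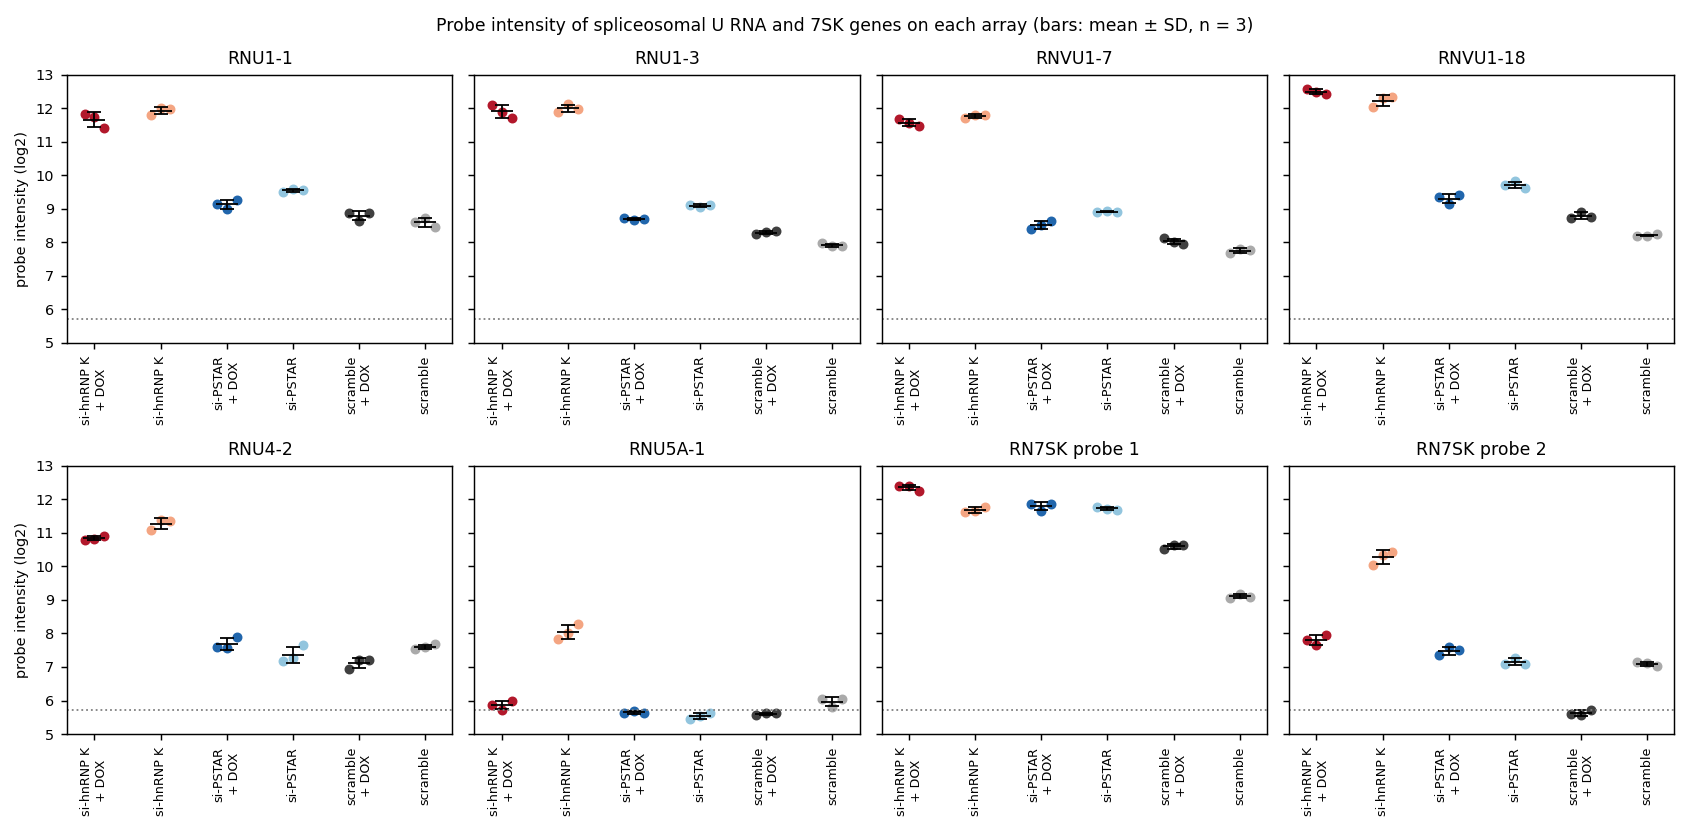
Log2 intensity of each of the 8 probes on each of the 18 arrays; coloured points are arrays, black bars are the mean ± SD of 3 arrays, and the dotted line is the median of all probes, 5.72. The U1 and U4 probes stood above 10 in both si-hnRNP K groups and below 10 in all other groups. RNU5A-1 and probe 2 of RN7SK averaged 8.04 and 10.28 in untreated si-hnRNP K arrays, but 5.86 and 7.81 in those with DOX.

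The 4 U1 probes gave the same picture: bright in the arrays labelled si-hnRNP K, lower in those labelled si-PSTAR and lowest in scramble arrays. RNU1-1, which encodes U1 itself, read 11.82, 11.74 and 11.41 with DOX and 11.80, 12.01 and 11.96 without in si-hnRNP K arrays. In si-PSTAR arrays it read 9.13, 8.99 and 9.27 with DOX and 9.50, 9.59 and 9.55 without. In scramble arrays it read 8.87, 8.63 and 8.88 with DOX and 8.60, 8.71 and 8.46 without. Each si-hnRNP K array was above every other array, and the ranges of the si-PSTAR groups lay between those of si-hnRNP K and scramble.

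RNU1-3, another U1 copy, read 12.09, 11.90 and 11.72 with DOX and 11.89, 12.11 and 11.97 without in si-hnRNP K arrays. It read 8.72, 8.66 and 8.68 with DOX and 9.12, 9.05 and 9.11 without in si-PSTAR arrays, and 8.24, 8.30 and 8.33 with DOX and 7.96, 7.87 and 7.90 without in scramble arrays. The 4 groups not labelled si-hnRNP K did not overlap one another. They stood in the order untreated si-PSTAR, si-PSTAR with DOX, scramble with DOX and untreated scramble, from high to low.

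RNVU1-7, a U1 variant gene, kept that order. Its arrays read 11.67, 11.54 and 11.48 (si-hnRNP K with DOX), 11.70, 11.81 and 11.79 (si-hnRNP K), 8.40, 8.52 and 8.62 (si-PSTAR with DOX), 8.90, 8.92 and 8.91 (si-PSTAR), 8.11, 8.00 and 7.95 (scramble with DOX), and 7.66, 7.80 and 7.78 (scramble). RNVU1-18, the other variant gene, read in si-hnRNP K arrays 12.58, 12.48 and 12.41 with DOX and 12.04, 12.29 and 12.33 without. It read 9.35, 9.14 and 9.40 with DOX and 9.70, 9.81 and 9.62 without in si-PSTAR arrays, against 8.72, 8.91 and 8.74 with DOX and 8.19, 8.18 and 8.23 without in scramble arrays. For RNVU1-18 none of the 6 groups overlapped its neighbour in the order of levels. The levels of different probes are not compared, since probes differ in brightness for the same amount of RNA.

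As a description of the contrast that chose them, the U1 probes in si-hnRNP K arrays were 7.26-fold (RNU1-1), 12.2-fold (RNU1-3), 11.6-fold (RNVU1-7) and 12.99-fold (RNVU1-18) above scramble with DOX, and 10.1-fold, 16.9-fold, 16.2-fold and 16.2-fold above it without DOX, in the same gene order. Against si-PSTAR arrays they were between 5.76-fold (RNU1-1) and 9.28-fold (RNU1-3) higher with DOX, and between 5.19-fold (RNU1-1) and 7.44-fold (RNU1-3) higher without, where cluster and condition cannot be told apart. Among all 43961 probes, 8 were more than 10-fold above scramble with DOX and 8 without (0.0182% in each case). Of the 8 probes described here, 4 passed that fold with DOX and 5 without. RNU1-1 without DOX was the member just inside it, and probe 2 of RN7SK without DOX, at 9.07-fold, the member just outside.

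All 4 U1 probes were higher in arrays labelled si-PSTAR than in scramble arrays, with and without DOX. The choice of genes did not use this comparison, but it did use the same scramble arrays. These tests are therefore not fully independent of the choice. With DOX, RNU1-1 was 1.26-fold higher (log2 difference 0.33 ± 0.11 SE, limma adjusted p = 0.0225), RNU1-3 1.32-fold (0.40 ± 0.09, adjusted p = 0.00133), RNVU1-7 1.41-fold (0.49 ± 0.09, adjusted p = 5.65e-05) and RNVU1-18 1.42-fold (0.51 ± 0.10, adjusted p = 0.00014). Every si-PSTAR array lay above every scramble array for each of these 4 probes, as for 15.2% of all probes. The RNU1-1 call was lost when DOX-treated scramble replicate 2 was left out (0.25, adjusted p = 0.163), and likewise without si-PSTAR replicate 1 (0.33, adjusted p = 0.0538) or replicate 3 (0.26, adjusted p = 0.145). Without DOX the same probes were 1.94-fold, 2.27-fold, 2.24-fold and 2.84-fold higher in gene order, with adjusted p from 1.34e-14 (RNVU1-18) to 3.98e-09 (RNU1-1); this comparison sets the clusters of arrays against each other. After cyclic loess the untreated differences were 0.67 (RNU1-1), 0.89 (RNU1-3), 0.87 (RNVU1-7) and 1.22 (RNVU1-18), and all were still called.

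Counted over all 8 probes, 7 were higher in si-PSTAR than in scramble arrays with DOX, where 18.5% of all probes were called in either direction, and 9.61% higher. Without DOX, 5 were higher and 1 lower, where 34% of all probes were called. All 8 probes had means at or above the median of all probes, and among the 21981 such probes 38.5% were called with DOX and 64.1% without. The 4 U1 probes read near-identical RNAs and are not separate pieces of evidence.

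DOX-treated and untreated arrays differed by smaller amounts at the U1 probes, and the sign was not the same under each siRNA. In scramble and si-hnRNP K arrays this comparison crosses the clusters, so DOX and cluster cannot be told apart there. In si-PSTAR arrays all 4 U1 probes fell, RNU1-1 by 0.42, RNU1-3 by 0.41, RNVU1-7 by 0.40 and RNVU1-18 by 0.41 on the log2 scale (limma adjusted p = 0.0122, 0.0049, 0.00419 and 0.00702). Their DOX-treated arrays all lay below the untreated ones, as for 9.10% of all probes. These U1 probes were the 4 called of the 8, where 6.11% of all probes were called in either direction, 2.92% were called lower, and 13.9% of those at or above the median were called. Without DOX-treated si-PSTAR replicate 2, 2 of the 4 calls were kept, RNU1-1 giving an adjusted p of 0.0979 and RNVU1-18 one of 0.0754. The RNVU1-18 call was also lost when the fit held only the arrays compared (adjusted p = 0.0551). In scramble arrays RNU1-3 rose by 0.38 (adjusted p = 0.00128), RNVU1-7 by 0.27 (adjusted p = 0.0143) and RNVU1-18 by 0.59 (adjusted p = 7.46e-06), and RNU1-1 differed by 0.21 without passing (adjusted p = 0.156). After cyclic loess RNU1-3 was at 0.09 and RNVU1-7 at -0.02 with no call, RNU1-1 was at -0.08, and RNVU1-18 at 0.31 was still called. The RNVU1-7 rise was also lost without DOX-treated scramble replicate 1 (adjusted p = 0.0805) or untreated scramble replicate 1 (adjusted p = 0.0802).

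In si-hnRNP K arrays RNVU1-18 rose with DOX by 0.27 (adjusted p = 0.033), and RNU1-1 at -0.27, RNU1-3 at -0.09 and RNVU1-7 at -0.20 did not pass (adjusted p = 0.0585, 0.563 and 0.0871). The RNVU1-18 call was lost without DOX-treated replicate 1 (0.23, adjusted p = 0.14) or 2 (0.27, adjusted p = 0.0675) or untreated replicate 1 (0.18, adjusted p = 0.25). After cyclic loess RNVU1-18 was at 0.02 and not called, whereas RNU1-1 at -0.52, RNU1-3 at -0.34 and RNVU1-7 at -0.46 were called lower. RNU1-1 was also called lower with array weights (adjusted p = 0.0436) and without DOX-treated or untreated replicate 1 (adjusted p = 0.0227 and 0.0417). Fitted at 1 bright probe a gene, as for the other U RNA genes below, RNU1-1 and RNVU1-7 were called lower (limma adjusted p = 0.0363 and 0.0462). With the mean of a gene's probes both were again called lower (adjusted p = 0.046 and 0.0332). RNU1-1 was also called lower among probes at or above the median (adjusted p = 0.0406). Which U1 probes were called with DOX in si-hnRNP K arrays, and by how much they differed, therefore depended on the scaling and the fit. The sign of each U1 difference was the same before and after cyclic loess.

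**Figure D2:**
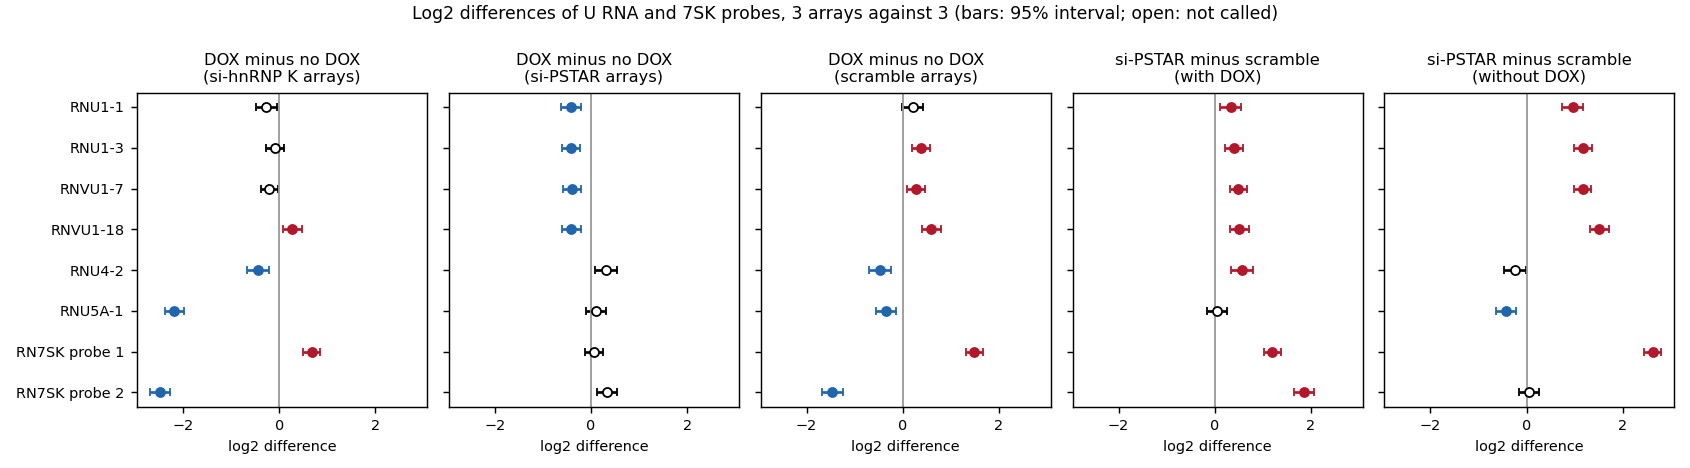
Log2 difference and 95% interval of each probe in the 5 two-group comparisons that did not choose the genes, from a limma fit of all 43961 probes; red is called higher, blue called lower and open circles are not called. The U1 probes lie to the right of 0 in both si-PSTAR minus scramble panels and to the left with DOX in si-PSTAR arrays, and the 2 RN7SK probes lie on opposite sides of 0 for DOX in si-hnRNP K and in scramble arrays.

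RNU4-2, one of the U4 genes, was brightest in the si-hnRNP K arrays and above the median of all probes in every group. It read 10.79, 10.81 and 10.90 with DOX and 11.08, 11.37 and 11.36 without in si-hnRNP K arrays, 7.59, 7.56 and 7.90 with DOX and 7.18, 7.26 and 7.64 without in si-PSTAR arrays, and 6.95, 7.20 and 7.20 with DOX and 7.54, 7.58 and 7.68 without in scramble arrays. Each si-hnRNP K array was above every array of the other groups, while the other groups overlapped their neighbours in the order of levels. Against scramble it was 13.2-fold higher with DOX and 12.7-fold without, as a description. Against si-PSTAR it was 8.91-fold higher with DOX and 15.01-fold without, the untreated value again crossing the clusters.

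In the tested comparisons RNU4-2 was 1.48-fold higher in si-PSTAR than in scramble arrays with DOX (0.56 ± 0.11 SE, limma adjusted p = 0.000261). Without DOX it differed by -0.24 (95% interval -0.47 to -0.01) and was not called (adjusted p = 0.111), but was called lower after cyclic loess (-0.54, adjusted p = 0.000233) and without untreated si-PSTAR replicate 3 (-0.38, adjusted p = 0.00861). RNU4-2 was lower with DOX in si-hnRNP K arrays, by 0.44 (adjusted p = 0.00295), and in scramble arrays, by 0.48 (adjusted p = 0.000854). These falls, and the untreated difference of si-PSTAR from scramble, cross the clusters. In si-PSTAR arrays RNU4-2 differed by 0.32 with DOX (95% interval 0.09 to 0.55, adjusted p = 0.0955), and was called higher without untreated si-PSTAR replicate 3 (0.46, adjusted p = 0.0101).

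RNU5A-1, one of the U5 genes, stood apart from the U1 and U4 probes. It read 7.83, 8.03 and 8.27 in untreated si-hnRNP K arrays, but 5.88, 5.73 and 5.99 in si-hnRNP K arrays with DOX. It read 5.62, 5.70 and 5.62 with DOX and 5.45, 5.55 and 5.61 without in si-PSTAR arrays, and 5.56, 5.63 and 5.62 with DOX and 6.04, 5.81 and 6.04 without in scramble arrays. Only the untreated si-hnRNP K arrays stood clearly above the median of all probes, and the means of both si-PSTAR groups and of DOX-treated scramble lay below it.

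Within si-hnRNP K arrays, RNU5A-1 fell 4.53-fold with DOX (log2 difference -2.18 ± 0.10 SE, limma adjusted p = 5.04e-18), and the difference ranged between -2.28 and -2.06 when 1 array was left out. The DOX-treated mean, 5.86, lay close to the median of all probes, 5.72, so this fold is measured down to a nearly dim level. In scramble arrays RNU5A-1 fell by 0.36 to a dim mean of 5.61 (adjusted p = 0.00527), and in si-PSTAR arrays it differed by 0.11 (adjusted p = 0.665). In untreated arrays it was lower in si-PSTAR than in scramble, by 0.42 (adjusted p = 0.000876). This comparison and the falls in si-hnRNP K and scramble arrays cross the clusters, and RNU5A-1 has only 1 probe. With DOX the si-PSTAR and scramble arrays differed by 0.04 (95% interval -0.16 to 0.25, adjusted p = 0.88), with both means below the median of all probes. The untreated si-hnRNP K level of RNU5A-1 was 4.23-fold above scramble, as a description.

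The 2 probes of RN7SK gave different accounts of 7SK. Probe 1, the brighter, read 12.40, 12.41 and 12.26 in si-hnRNP K arrays with DOX and 11.61, 11.65 and 11.78 without. It read 11.85, 11.65 and 11.88 in si-PSTAR arrays with DOX and 11.77, 11.72 and 11.70 without, against 10.52, 10.65 and 10.63 in scramble arrays with DOX and 9.07, 9.17 and 9.09 without. All si-hnRNP K and si-PSTAR arrays were above all scramble arrays on this probe, and untreated si-hnRNP K arrays overlapped si-PSTAR arrays.

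Probe 2 read 7.80, 7.67 and 7.95 in si-hnRNP K arrays with DOX and 10.04, 10.36 and 10.44 without, 7.35, 7.59 and 7.51 in si-PSTAR arrays with DOX and 7.10, 7.27 and 7.08 without, and 5.61, 5.56 and 5.73 in scramble arrays with DOX and 7.15, 7.12 and 7.02 without. Its highest group was untreated si-hnRNP K and its lowest DOX-treated scramble, whose mean of 5.63 lay below the median of all probes. That order differs from that of probe 1, whose lowest group was untreated scramble.

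With DOX, where all arrays fall in the same cluster, both RN7SK probes were higher in si-PSTAR than in scramble arrays. Probe 1 was 2.29-fold higher (1.20 ± 0.09 SE, limma adjusted p = 2.98e-12) and probe 2 higher by 1.85 ± 0.10 (adjusted p = 3.48e-15). The scramble side of each probe 2 difference with DOX is the dim mean of 5.63, so these log2 values are the measured differences and no linear fold is given. As a description, si-hnRNP K arrays with DOX stood 1.76 (probe 1) and 2.18 (probe 2) log2 units above scramble, and 0.56 and 0.33 above si-PSTAR. Without DOX they stood 2.57 and 3.18 above scramble, 5.93-fold and 9.07-fold. Untreated si-hnRNP K arrays differed from untreated si-PSTAR arrays, across the clusters, by -0.05 (probe 1) and 3.13 (probe 2).

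In comparisons that cross the clusters the probes disagreed. With DOX in scramble arrays, probe 1 rose 2.80-fold (1.49 ± 0.09, adjusted p = 2.3e-15) and probe 2 fell by 1.46 to that dim mean (adjusted p = 1.62e-13). With DOX in si-hnRNP K arrays, probe 1 rose 1.60-fold (0.68 ± 0.09, adjusted p = 2.39e-07) and probe 2 fell 5.54-fold (-2.47 ± 0.10, adjusted p = 3.43e-19). In untreated si-PSTAR against untreated scramble, probe 1 was 6.14-fold higher (2.62 ± 0.09, adjusted p = 9.51e-22) and probe 2 differed by 0.06 (95% interval -0.15 to 0.27, adjusted p = 0.752). The gap between the probes was 2.95, 3.15 and 2.56 log2 units in these 3 comparisons. A gap as large was seen in 3.08%, 1.54% and 4.79% of the 1169 genes compared above at their 2 brightest probes. Inside a cluster the gap was at most 0.66, and a gap as large was seen in between 2.48% and 29.3% of these genes. The lowest of these shares was for untreated si-hnRNP K against scramble, with a gap of 0.61. No direction of 7SK with DOX can be given from these probes for scramble or si-hnRNP K arrays.

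In si-PSTAR arrays neither RN7SK probe was called with DOX. Probe 1 differed by 0.06 (95% interval -0.12 to 0.24, adjusted p = 0.798) and probe 2 by 0.33 (0.12 to 0.54, adjusted p = 0.0502). Probe 2 was called when only probes at or above the median were fitted (adjusted p = 0.0363) and without DOX-treated si-PSTAR replicate 1 (0.40, adjusted p = 0.0332) or untreated si-PSTAR replicate 2 (0.39, adjusted p = 0.0344).

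Over the 8 probes, DOX called 5 in si-hnRNP K arrays, 2 higher and 3 lower, where 27.7% of all probes and 53.5% of those at or above the median were called. It called 7 in scramble arrays, 4 higher and 3 lower, where 31.7% and 60.7% were called. RNU4-2, RNU5A-1 and probe 2 of RN7SK fell in both, and RNVU1-18 and probe 1 of RN7SK rose in both; the comparisons share no arrays, but both set the same clusters against each other. The DOX response in si-PSTAR arrays minus that in scramble arrays, an interaction term, was called at all 8 probes, where 25.7% of all probes and 51.1% of those at or above the median were called.

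The other U RNA genes on the array were looked up by symbol, and 7 of 9 were bright enough to test. Against scramble, 5 of these 7 were higher, by 2.27 to 2.54 log2 units for the 4 measured against a mean above the median of all probes, in si-hnRNP K arrays with DOX, where 39.7% of 12483 genes were called in either direction and 19.8% higher. These genes belong to the same RNA class as those chosen and are not independent of the choice. RNU11, the minor-spliceosome RNA that takes the part of U1, averaged 8.95 in si-hnRNP K arrays with DOX, against 6.41 in scramble arrays with DOX (limma adjusted p = 7.07e-16). RNU6-1, a U6 gene, averaged 13.93 against 11.63, RNU6ATAC 9.40 against 7.03 and RNU4ATAC 9.27 against 6.996; the last are the minor-spliceosome partners that replace U6 and U4. RNU4-1, a near-identical copy of RNU4-2, averaged 7.78 against 5.54, a mean below that median.

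Without DOX the same 5 genes were higher in si-hnRNP K than in scramble arrays by 2.09 (RNU11) to 2.78 (RNU4-1) log2 units, and RNU2-1, of the U2 RNA that marks the branch point, was higher by 0.99 (adjusted p = 1.13e-06), where 33.3% of genes were called. With DOX RNU2-1 differed by 0.06 (adjusted p = 0.744). RNU2-1 fell by 1.03 with DOX in si-hnRNP K arrays (adjusted p = 3.65e-07) and RNU4-1 by 0.96 (adjusted p = 2.97e-07), which is the direction of RNU4-2, RNU5A-1 and probe 2 of RN7SK. RNU11, RNU6-1, RNU4ATAC and RNU6ATAC rose there, by 0.51, 0.38, 0.35 and 0.44 (adjusted p up to 0.0165). DOX against no drug in si-hnRNP K arrays crosses the clusters. RNU105C, which the symbol search also returned, was not called against scramble in si-hnRNP K arrays, at -0.05 with DOX and 0.01 without. RNU5D-1 and RNU105B were below the median of all probes and were not tested.

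In si-PSTAR against scramble with DOX, RNU4ATAC was higher by 1.10 (adjusted p = 4.07e-08), RNU4-1 by 0.70 over that dim scramble mean (adjusted p = 3.22e-05) and RNU6ATAC by 0.39 (adjusted p = 0.00782), where 45% of genes were called. RNU6-1 differed by -0.14 and RNU11 by 0.07 and were not called.

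**Figure D3:**
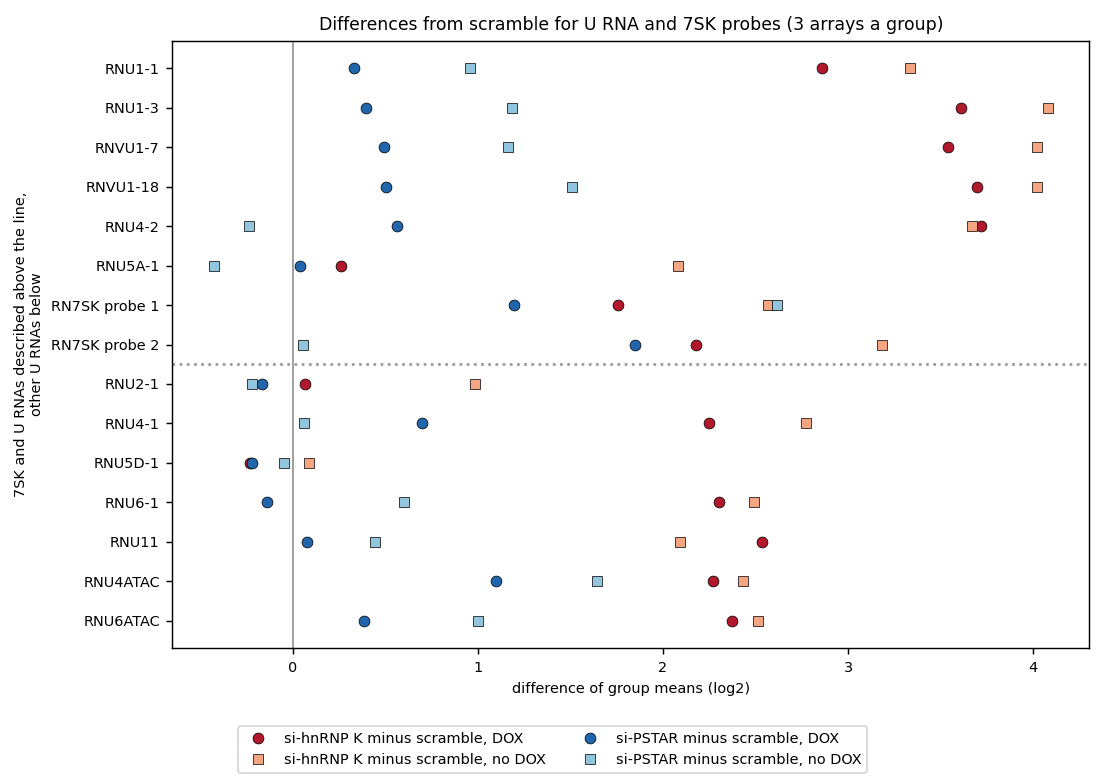
Difference of group means from scramble, in log2 units, for the 8 probes described (above the dotted line) and 7 other U RNA genes (below); red and orange are si-hnRNP K arrays and dark and light blue si-PSTAR arrays, circles with DOX and squares without. With DOX, 6 of the upper probes lie between 2.18 and 3.72 in si-hnRNP K arrays, and all upper probes lie at or below 1.85 in si-PSTAR arrays.

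The genes most like the chosen ones over the 18 arrays were ranked by Pearson's r with the mean of the 7 genes, each taken at its brightest probe and centred. The 10 nearest of the genes tested were ALB (r = 0.984), MIR320A (0.981), RNU6ATAC (0.972), SCG2 (0.970), H3C1 (0.969), CGA (0.967), H2BC8 (0.967), RNU6-1 (0.966), RNU11 (0.964) and SNORA16A (0.963). The r values rest on groups that stand apart, mostly si-hnRNP K against the rest, and are a measure of likeness with no test. ALB, the serum albumin gene and one of the hepatocyte markers, averaged 8.69 in si-hnRNP K arrays with DOX and 8.60 without, 6.93 and 6.94 in si-PSTAR arrays, and 6.84 and 6.47 in scramble arrays. Its part in the results above was not tested.

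Small nucleolar RNAs, which guide modification and cleavage of other RNAs, and histone genes also stood higher in si-hnRNP K arrays. Of 170 snoRNA and scaRNA genes tested, 111 were higher and 3 lower than scramble with DOX (67.1% called, against 39.7% of all genes) and 109 higher and 0 lower without (64.1%, against 33.3%; list medians 0.43 and 0.39, against -0.01 and 0.00 for all genes). SNORD3A, a U3 gene of ribosomal RNA processing, was higher by 3.83 and 3.61 with and without DOX. Of 48 histone genes chosen by symbol prefix, 41 were higher and 0 lower with DOX (85.4% called) and 42 and 0 without (87.5%; medians 0.80 and 0.71), among them H2BC5 by 1.89 and 1.32 and H3C13 by 1.94 and 1.68. As background, replication-dependent histone mRNAs also end without a poly(A) tail. In si-PSTAR against scramble with DOX, 76 snoRNA and scaRNA genes were higher and 1 lower (median 0.23), SNORD13 by 2.23, and 14 histone genes were higher and 4 lower (median 0.11). Those called shares, 45.3% and 37.5%, were near or below the 45% of all genes called.

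Other structured RNAs were mixed. Of 10 tested, 6 were higher and 2 lower in si-hnRNP K than in scramble arrays with DOX (80% called, against 39.7% of all genes), and 4 and 2 without (60%, against 33.3%). RNY4, a Y RNA of the Ro ribonucleoprotein, was higher by 1.42 with DOX and 1.37 without (limma adjusted p = 2.66e-10 and 6.39e-10). RNY1 was higher by 0.70 and 0.61, and VTRNA2-1 was lower by 0.47 and 0.49 (adjusted p = 0.000818 and 0.000653). In si-PSTAR against scramble with DOX, 3 were higher and 2 lower, or 50% against 45% of all genes, VTRNA2-1 falling by 1.11 and RNY5 by 0.67.

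Genes for the proteins that make, assemble and use these RNAs filled 5 lists with 127 genes tested. In si-hnRNP K arrays 30 of them were higher and 14 lower than scramble with DOX, a called share of 34.6% against 39.7% of all genes, and no gene reached 2-fold. Without DOX 30 were higher and 10 lower, against 33.3% of all genes called, and BRF2 alone reached 2-fold. The median of the 127 genes was 0.07 with DOX and 0.05 without, against -0.01 and 0.00 for all genes.

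Among snRNP proteins 6 of 45 were higher and 5 lower in si-hnRNP K arrays with DOX, with SNRPA1, a U2 protein, higher by 0.58 and SNRPN, an Sm core protein, lower by 0.48. Without DOX 8 were higher and 4 lower, with SNRPA1 higher by 0.43 and SNRPN lower by 0.61. Among 22 assembly factors 5 were higher and 2 lower in each state, with GEMIN5, which binds snRNAs for the SMN complex, higher by 0.43 with DOX and 0.50 without. Of snRNP proteins 24.4% were called with DOX and 26.7% without, and of assembly factors 31.8% in each state. These shares lay below the 39.7% and 33.3% of all genes called. Among 8 proteins of the 7SK particle and P-TEFb, CCNT2, a cyclin of P-TEFb, was the gene called with DOX, lower by 0.63, though the other CCNT2 probes differed by -0.10 and 0.05 and were not called. CDK9, the kinase of P-TEFb, was the gene called without DOX, higher by 0.45. LARP7, which binds and protects 7SK, differed by -0.22 with DOX and -0.13 without and was not called.

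Among 19 genes of snRNA transcription 4 were higher and 1 lower with DOX and 5 and 1 without. Those called shares were 26.3% and 31.6%, against 39.7% and 33.3% of all genes. BRF2, the factor that brings RNA polymerase III to U6 and 7SK type promoters, was higher by 0.81 with DOX and 1.01 without (limma adjusted p = 2.6e-07 and 7.28e-09). GTF2B, a factor of RNA polymerase II initiation, was lower by 0.60 and 0.31. Among 35 genes of snRNA 3′ end processing and trimming 15 were higher and 5 lower with DOX, and 11 and 3 without. Here 57.1% and 40% were called, against the same 39.7% and 33.3% of all genes called in either direction. The Integrator subunit genes INTS10 and INTS13, of the complex that cleaves nascent snRNAs, were higher by 0.91 and 0.78 with DOX and 0.78 and 0.72 without. TENT4A, a noncanonical poly(A) polymerase, was higher by 0.70 in each state, and INTS2 was lower by 0.87 without DOX.

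In si-PSTAR against scramble with DOX, 51 of the 127 protein genes were higher and 13 lower, with a median of 0.21 against 0.01 for all genes, of which 45% were called. Among snRNP proteins 19 were higher and 6 lower (55.6% called). SNRPD3, an Sm core protein, was higher by 1.16 (limma adjusted p = 1.54e-09), TXNL4A, a U5 protein, by 0.66, and PRPF3, a protein of the U4 and U6 particle, was lower by 1.06 (adjusted p = 6.34e-09). Among assembly factors 7 were higher and 2 lower (40.9% called), with PHAX, the export adaptor of U RNAs, higher by 0.64 and SNUPN, their import adaptor, and WDR77, of the methylosome, lower by 0.55 and 0.59. Among 7SK and P-TEFb proteins SSB, the La protein that binds RNA polymerase III transcripts, was the gene called, higher by 0.61.

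In the same comparison 8 of 19 snRNA transcription genes were higher and 1 lower (47.4% called, against 45% of all genes), with TBP higher by 0.54 and ZNF143, an activator of snRNA promoters, by 0.48. Of 35 genes of 3′ end processing and trimming 16 were higher and 4 lower (57.1% called), with DIS3, an exosome nuclease, higher by 1.30 and EXOSC5, an exosome subunit, by 0.73. USB1, the enzyme that trims the end of U6, was lower by 1.01 (adjusted p = 2.22e-09). With DOX in si-PSTAR arrays 14 of the 127 were higher and 6 lower, where 17.9% of genes were called, among them HEXIM2 higher by 0.57, CDK9 higher by 0.28 and SNUPN lower by 0.59.

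**Figure D4:**
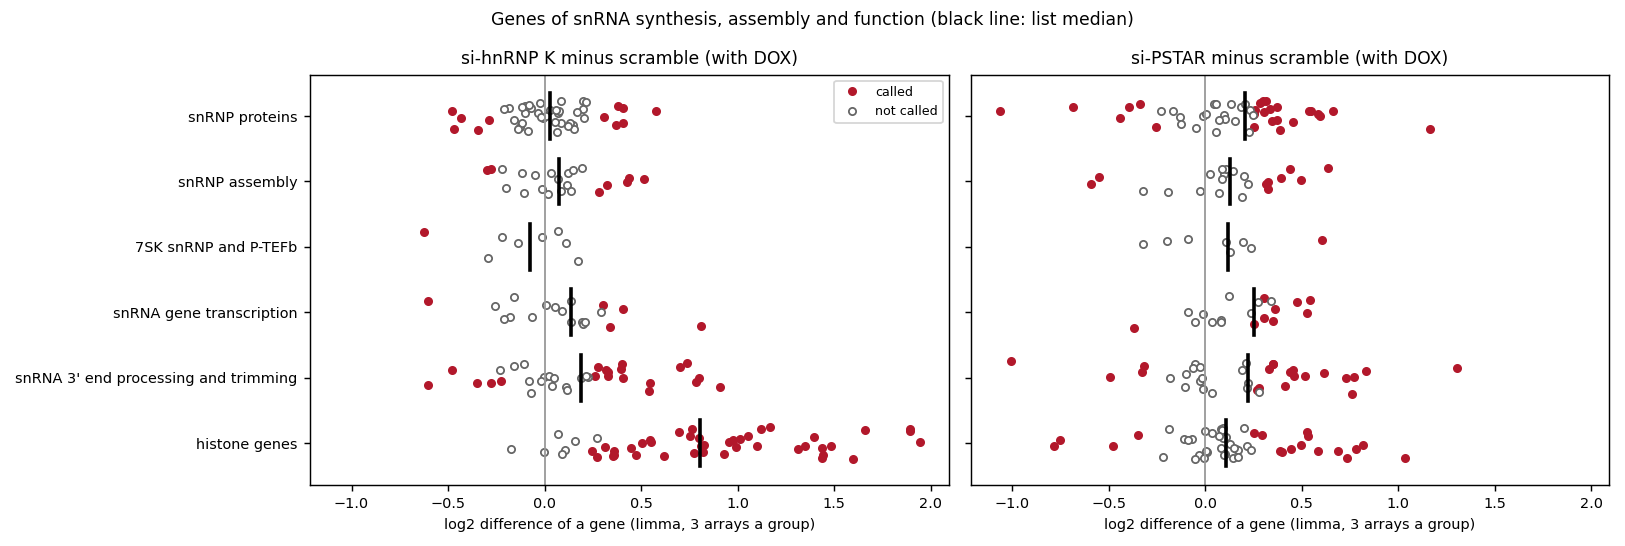
Log2 difference of each tested gene of 5 protein lists and of the histone genes, with DOX, in si-hnRNP K minus scramble arrays (left) and si-PSTAR minus scramble arrays (right); filled red points are called at an adjusted p under 0.05, open points are not, and black lines are list medians. The protein lists have medians between -0.08 and 0.19 on the left and between 0.12 and 0.26 on the right, and the histone median is 0.80 on the left and 0.11 on the right.

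In the comparisons that cross the array clusters the tested genes shifted, and the protein lists shifted with them. The median of the 12483 tested genes, each at its brightest probe, was 0.21 for DOX in si-hnRNP K arrays, 0.24 for DOX in scramble arrays and 0.17 for untreated si-PSTAR against scramble; over all 43961 probes, dim ones included, it was 0.05, 0.05 and 0.04. The medians of the 127 protein genes were 0.28, 0.33 and 0.40, with 68 higher and 22 lower, 75 and 26, and 80 and 30, where 58.8%, 65.2% and 66.2% of all genes were called. The interaction term was called for 80 of the 127, where 52.9% of all genes were called. Among genes with large falls there, ICE1 fell by 2.7 with DOX in scramble arrays on its brightest probe. The other ICE1 probes differed by -0.15 and 0.10 without a call. They lay near or below the median of all probes, so they say little about such a fall. INTS8 fell by 2.30 and RBM7 by 2.24 in the same comparison, and their other probes are not described here.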

How the data were processed

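RNA of 18 samples was hybridised to single-channel Illumina arrays, 3 in each of 6 groups taken from the sample labels. The authors' deposited values are log2 intensities, 1 per probe and array, for 43961 probes. Their scale and a quantile normalization were inferred from the table itself, since 99.9955% of ranks held values within 0.01 of each other on every array. For software, background correction and genome build the sources used here give nothing, so no coordinates are printed, and no member sequence was available. No detection p-values were used. The number of arrays limits the precision.

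Probes were named through the supplied annotation, with identifiers matched to RefSeq for 29474 of 29511 probes that had 1 symbol; 14450 had none here. The members were fitted probe by probe: limma 3.58.1 in R 4.3.3, 6 group means over all probes, 12 residual and 18.6 prior degrees of freedom, two-sided, Benjamini-Hochberg adjusted over all probes, called at 0.05. Intervals are 95% from the same fit. The gene lists used the brightest probe of each gene, with genes under the median of all probes, 5.72, left out; 12483 genes were tested with 13.5 prior degrees of freedom. A group mean under 5.72 is called dim; no linear fold is given against it, and log2 differences from it are as measured, with no bound. Exact permutation of 3 against 3 cannot give a p below 0.1.

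The members, the lists and the tests were chosen with earlier results of these data known. Genes named beside the members are HNRNPK, the U RNA genes found by symbol, the 10 nearest patterns, and up to 4 called genes with the smallest p of each list and comparison; LARP7, ICE1 and the values set beside their own second probes or other states were added after seeing the data. Replicate numbers did not pair the arrays. The alternatives tried comprised a 75th percentile centring, cyclic loess, a filter on dim probes or none, 1 probe or the mean of probes a gene, only the arrays compared, a trended prior, array weights, the replicate number as a block, and dropping arrays 1 at a time. Plots were made in matplotlib 3.10.9.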

Additional observations from a re-analysis of the deposited data

Results flagged for a closer look

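The response to DOX differed between si-PSTAR and scramble arrays at all 8 probes by the interaction term of the limma fit. After cyclic loess the RNU1-1 call was lost (-0.35, adjusted p = 0.125). The differences are the response in si-PSTAR arrays minus that in scramble arrays, in log2 units. The U1 probes differed by -0.62 (RNU1-1, adjusted p = 0.00157), -0.79 (RNU1-3, adjusted p = 1.52e-05), -0.67 (RNVU1-7, adjusted p = 7.59e-05) and -1.002 (RNVU1-18, adjusted p = 6.08e-07). RNU4-2 differed by 0.80 (adjusted p = 0.000196) and RNU5A-1 by 0.47 (adjusted p = 0.0131). Probe 1 of RN7SK differed by -1.42 (adjusted p = 5.89e-11) and probe 2 by 1.79 (adjusted p = 8.85e-12), in opposite directions. Untreated scramble arrays stand in the other cluster from the other 3 groups of this term, so that cluster and interaction cannot be told apart. RNVU1-7 was lower with DOX in si-hnRNP K arrays, by 0.20 with no call in the fit of all probes (log2 difference -0.20). In scramble arrays it was higher. The arrays did not overlap in either comparison, as for 39.6% of all probes in si-hnRNP K arrays and 42.4% in scramble arrays. Both comparisons cross the clusters, and that these 2 responses differ was not tested.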

How the results depend on the processing

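Of 378 alternative values of single probes in the tested comparisons, other than those from centring or from leaving out an array, 352 kept their direction and side of the threshold, and of 864 that left out an array 842 did. After cyclic loess the DOX response in scramble arrays was reversed for RNVU1-7 (-0.0165) and RNU1-1 (-0.0812), untreated si-PSTAR minus scramble for RN7SK probe 2 (-0.26), and untreated si-hnRNP K minus si-PSTAR for RN7SK probe 1 (0.17). With the mean of its probes, RN7SK differed by -0.90 and 0.0117 with DOX in si-hnRNP K and scramble arrays, by 1.54 between untreated si-hnRNP K and si-PSTAR arrays, and by 0.19 in the interaction, each reversed against 1 of the 2 probes by construction. Without 1 array, RNU1-3 with DOX in si-hnRNP K arrays ranged between -0.18 and 0.00272 (the highest without DOX-treated replicate 3), and RN7SK probe 2 in untreated si-PSTAR minus scramble between -0.00336 and 0.0914 (the lowest without untreated si-PSTAR replicate 2). The cause of the cyclic loess reversals was not tested.

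The median difference of the probes, 3.20 and 3.50 above scramble with and without DOX in si-hnRNP K arrays and 2.79 and 2.68 above si-PSTAR, was 3.54, 3.67, 3.05 and 2.51 with 1 value a gene (brightest probe or mean of probes), which counts 7 genes in place of 8 probes; cyclic loess gave 2.94 for the last. Without 1 array the untreated medians ranged between 3.46 and 3.58 over scramble and between 2.65 and 2.75 over si-PSTAR. For DOX in si-PSTAR arrays the 4 probes called became 2 to 5 without 1 array, and the 20 protein genes called became 9 with array weights, 4 with only the arrays compared, and between 7 and 21 without 1 array (7 without DOX-treated replicate 2 or untreated replicate 1). All probes called there numbered 2688, against 1871 with array weights and 1045 with only the arrays compared. After cyclic loess 52 protein genes were called for DOX in si-hnRNP K arrays, against 90 before it, and 51 for the interaction, against 80. Centring on the 75th percentile changed nothing, since that percentile was equal on all arrays.

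With the replicate number as a block, 6 in place of 4 probes were called for DOX in si-PSTAR arrays, RN7SK probe 2 and RNU4-2 being added (adjusted p = 0.0462 and 0.0385), and all probes called there numbered 2758 against 2688. The numbers did not pair the arrays: in 0 of 9 comparisons did every same-numbered pair correlate over 0.1, r lay between -0.162 and 0.164, and 9 of 27 arrays correlated best with their own number. The block left every other count of the 8 probes as it was.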
